A study of Mus musculus with 6 samples.

Results

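The 10 genes described here keep DNA methylation and chromatin in place when cells copy their genome, or remove that methylation. They are Uhrf1, Uhrf2, Dnmt1, Dnmt3a, Chaf1a, Chaf1b, Asf1a, Asf1b, Tet2 and Tet3. All 10 were found by symbol among the 23366 genes of the deposited table, and 9 of the 10 were among the 11268 genes tested. The group was proposed after Uhrf1 and Chaf1b had been seen among the genes higher in the knockout, so it was chosen on the same values of knockout against wild type that are given below. Those values are therefore a description. They include no test over the 10 genes, and no count of them is evidence.

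Epithelial cells were isolated from a salivary gland of the mouse, the submandibular gland, and their RNA was sequenced. The study has 3 libraries of p63 knockout (KO) animals and 3 of p63 wild-type (WT) animals, all adults of 12 weeks. The Trp63 gene makes p63, which controls transcription in the basal cells of epithelia. The labels name no Cre driver, deleted exon or strain and do not say how mice were allotted to libraries, so a p-value reflects only how these libraries varied, which may be technical. Levels are TPM values, a measure of transcript share that allows for gene length. They sum to 1000000 in each library, so depth is unknown. Trp63 itself stood at 1.59, 0.816 and 1.76 TPM in KO libraries 1, 2 and 3, against 3.48, 1.85 and 3.68 TPM in WT libraries 1, 2 and 3. The groups did not overlap, but Trp63 did not pass limma's test over all genes (log2 fold change -0.74, SE 0.27, adjusted p = 0.27).

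DNA methylation is copied at the replication fork. Uhrf1 recognises the half-methylated DNA left behind the fork and brings in Dnmt1, which methylates the new strand. Dnmt3a sets methylation on unmethylated DNA, and the Tet enzymes oxidise methylcytosine, a step towards its removal. The same fork rebuilds nucleosomes. Asf1 chaperones hand newly made histones to CAF-1, a complex of Chaf1a, Chaf1b and Rbbp4 that is tethered to the fork by the sliding clamp Pcna. Cells that divide need most of these proteins in S phase, and in the adult gland most cells divide rarely.

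The stretches of DNA just before the starts of 4 of the genes are shown first. Uhrf1, Chaf1a and Chaf1b were higher in every KO library than in any WT library, and Asf1b was high mainly in KO library 3. The sequences are from RefSeq on GRCm38.p6, another build than the mm9 of the deposited values, and each gives the 250 bases before a start site, 5′ to 3′ on the strand of the gene. Capitals mark matches that lie whole within the stretch, on either strand. The words searched were the E2F core (TTCCCGC or TTCGCGC or TTGCCGC or TTGGCGC), the cell cycle homology region (TTTGAA) and the CCAAT box (CCAAT), and none of these words contains another.
Uhrf1, chr17:56303087-56303336, plus strand: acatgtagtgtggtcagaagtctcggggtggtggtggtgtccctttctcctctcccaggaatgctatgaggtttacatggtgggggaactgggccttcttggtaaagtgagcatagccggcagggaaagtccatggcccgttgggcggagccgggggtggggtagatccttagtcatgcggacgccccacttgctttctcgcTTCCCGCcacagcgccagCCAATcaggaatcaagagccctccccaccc
Chaf1a, chr17:56040166-56040415, plus strand: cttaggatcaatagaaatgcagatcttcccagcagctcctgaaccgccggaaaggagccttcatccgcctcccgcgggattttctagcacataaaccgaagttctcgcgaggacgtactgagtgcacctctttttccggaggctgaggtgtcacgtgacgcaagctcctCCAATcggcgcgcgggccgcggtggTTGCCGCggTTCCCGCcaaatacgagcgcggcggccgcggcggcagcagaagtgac
Chaf1b, chr16:93883651-93883900, plus strand: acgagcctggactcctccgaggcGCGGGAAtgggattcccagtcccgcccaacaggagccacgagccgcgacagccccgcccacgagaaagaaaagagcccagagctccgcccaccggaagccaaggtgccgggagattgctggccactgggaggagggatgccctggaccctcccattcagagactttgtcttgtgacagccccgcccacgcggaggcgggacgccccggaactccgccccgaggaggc
Asf1b, chr8:83955444-83955693, plus strand: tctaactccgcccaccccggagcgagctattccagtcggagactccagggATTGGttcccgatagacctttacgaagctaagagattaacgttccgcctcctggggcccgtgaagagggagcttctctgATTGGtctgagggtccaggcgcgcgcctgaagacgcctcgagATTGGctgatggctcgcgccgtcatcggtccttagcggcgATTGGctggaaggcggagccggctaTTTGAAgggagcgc

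The E2F core is the short word bound by the E2F factors, which switch on genes for S phase. Over windows that reach from 250 bases before to 50 bases after a start site, Uhrf1, Chaf1a, Chaf1b, Dnmt1 and Uhrf2 held at least 1 match, and the other 5 genes held none. Of all 27025 genes with such a window, 10.9% held a match. In Uhrf1 the first base of the match lay 48 bases before the first of its 2 start sites. Chaf1a held 2 matches, starting 56 and 47 bases before its start site. Asf1b held no E2F core, but 4 CCAAT boxes and a cell cycle homology region 14 bases before its start site. A CCAAT box was found in 41.1% of all genes with a window and the cell cycle homology region in 20.2%. A match is a description of the letters and not a binding site.

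Uhrf1 had the largest difference of the 10 genes. It stood at 17.4, 16.4 and 12.7 TPM in KO libraries 1, 2 and 3, against 1.74, 2.09 and 2.59 TPM in WT libraries 1, 2 and 3. The lowest KO library was well above the highest WT library, and the group means differed 7.25-fold (15.5 ± 2.46 TPM in KO and 2.14 ± 0.423 TPM in WT, SD, n = 3 each). On the log2(TPM + 1) scale the difference was 2.39 (SE 0.23), which understates the change of low genes. Uhrf1 was the most abundant of the 10 genes in each KO library, while by mean level it was number 7 in WT. It made up 23.1%, 19.6% and 23.6% of the summed TPM of the 10 genes in the KO libraries, against 5.74%, 5.80% and 7.66% in the WT libraries. In bulk samples, more cells that express a gene and more RNA per cell cannot be told apart.

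Uhrf2, the paralog of Uhrf1 that also binds modified DNA but does not replace it in maintenance, followed another pattern. It measured 12.8, 12.9 and 6.38 TPM in the KO libraries and 6.71, 6.60 and 6.95 TPM in the WT libraries. KO libraries 1 and 2 were above all WT libraries and KO library 3 was below them, so the groups overlapped (log2 difference 0.54, SE 0.29). Within each library, the ratio of Uhrf1 to Uhrf2 was 1.36, 1.27 and 1.999 in KO, against 0.260, 0.317 and 0.372 in WT. Every KO library thus held more Uhrf1 than Uhrf2 transcript per length, and every WT library held less. A ratio within a library does not depend on how that library was scaled. Dnmt1, the methyltransferase that Uhrf1 recruits, was close to level. Its values were 4.25, 3.95 and 6.24 TPM in the KO libraries and 5.03, 5.70 and 4.42 TPM in the WT libraries, with overlapping groups (log2 difference -0.07, SE 0.24). Over the alternative settings the Dnmt1 difference ran from -0.24 to 0.03, so it had no settled sign. The ratio of Uhrf1 to Dnmt1 was 4.10, 4.15 and 2.04 in KO and 0.347, 0.368 and 0.586 in WT, a log2 difference of 2.95 between group means.

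**Figure D1:**
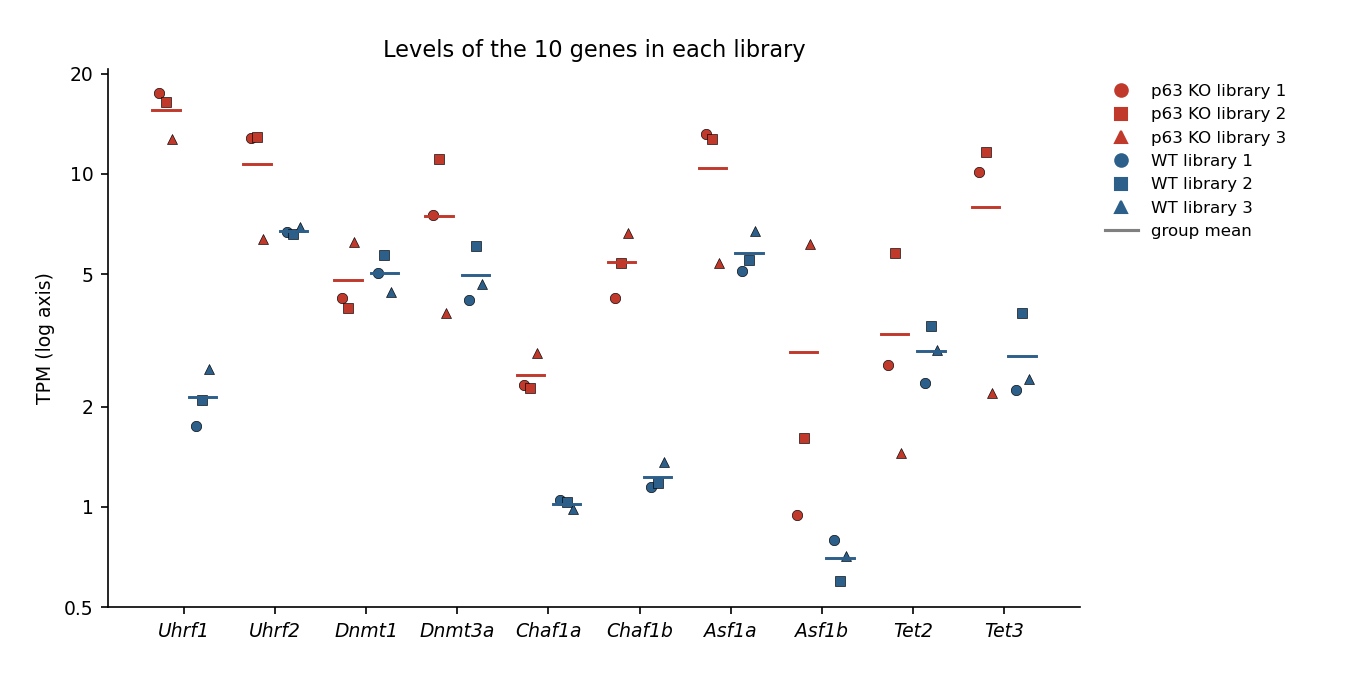
Level in TPM (log axis) of each of the 10 genes in the 3 KO libraries (red, left) and the 3 WT libraries (blue, right), with the group mean as a bar. The KO libraries sit above the WT libraries without overlap for Uhrf1 (12.7 to 17.4 against 1.74 to 2.59 TPM), Chaf1a, Chaf1b and Asf1b, and overlap with them for the other 6 genes.

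The CAF-1 subunits were also higher in every KO library. Chaf1b, the subunit that holds the histone pair together with Chaf1a, stood at 4.23, 5.42 and 6.64 TPM in the KO libraries, against 1.15, 1.18 and 1.36 TPM in the WT libraries. Group means differed 4.41-fold (5.43 ± 1.21 TPM in KO and 1.23 ± 0.115 TPM in WT, SD, n = 3 each), and the log2 difference was 1.51 (SE 0.22). Chaf1a, the large subunit that binds Pcna, stood at 2.33, 2.27 and 2.89 TPM in KO and 1.05, 1.03 and 0.984 TPM in WT. Its groups were apart as well, with a log2 difference of 0.79 (SE 0.17). Both subunits were highest in KO library 3. The ratio of Chaf1b to Chaf1a was 1.81, 2.39 and 2.30 in the KO libraries, above the 1.10, 1.14 and 1.38 in the WT libraries, a log2 difference of 0.84. The common subunit Rbbp4, which also serves other chromatin complexes and is not 1 of the 10 genes, stood at 30.95, 30.98 and 25.5 TPM in KO and 26.6, 26.8 and 29.2 TPM in WT. The Rbbp4 groups overlapped (log2 difference 0.08, SE 0.19, limma adjusted p = 0.84).

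The Asf1 chaperones split by library. Asf1b, the form linked to dividing cells, stood at 0.948, 1.61 and 6.17 TPM in KO libraries 1, 2 and 3, against 0.797, 0.598 and 0.713 TPM in WT libraries. The groups did not overlap, but KO library 1 was only just above the highest WT library and most of the difference came from KO library 3. Asf1b did not reach 1 TPM in 3 libraries and was not tested (log2 difference 0.96). Asf1a, which also supplies histones outside replication, went the other way between the KO libraries, with 13.1, 12.7 and 5.39 TPM in KO and 5.10, 5.51 and 6.71 TPM in WT. KO libraries 1 and 2 were above all WT libraries and KO library 3 was among them (log2 difference 0.67, SE 0.34). The ratio of Asf1b to Asf1a was 0.0721, 0.127 and 1.15 in the KO libraries and 0.156, 0.109 and 0.106 in the WT libraries. Only KO library 3 held about as much Asf1b as Asf1a.

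The de novo methyltransferase and the Tet enzymes were high in KO libraries 1 or 2 and not in KO library 3. Tet3 stood at 10.1, 11.6 and 2.199 TPM in KO, against 2.24, 3.83 and 2.42 TPM in WT. KO libraries 1 and 2 were above all WT libraries and KO library 3 was below them (log2 difference 1.02, SE 0.51). Dnmt3a stood at 7.54, 11.1 and 3.83 TPM in KO and 4.19, 6.07 and 4.68 TPM in WT, with the same split (log2 difference 0.42, SE 0.36). Tet2 stood at 2.67, 5.79 and 1.45 TPM in KO and 2.36, 3.50 and 2.96 TPM in WT. Only KO library 2 exceeded the WT libraries, and the log2 difference of Tet2 was 0.01 (SE 0.37), with a sign that changed among the alternatives (-0.38 to 0.42). The ratio of Tet2 to Tet3 was below 1 in every KO library, at 0.264, 0.499 and 0.660, while it was 1.05, 0.912 and 1.22 in the WT libraries. The groups of this ratio did not overlap (log2 difference -1.25). The ratio of Dnmt3a to Dnmt1 overlapped between groups, with 1.78, 2.81 and 0.614 in KO and 0.833, 1.07 and 1.06 in WT.

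**Figure D2:**
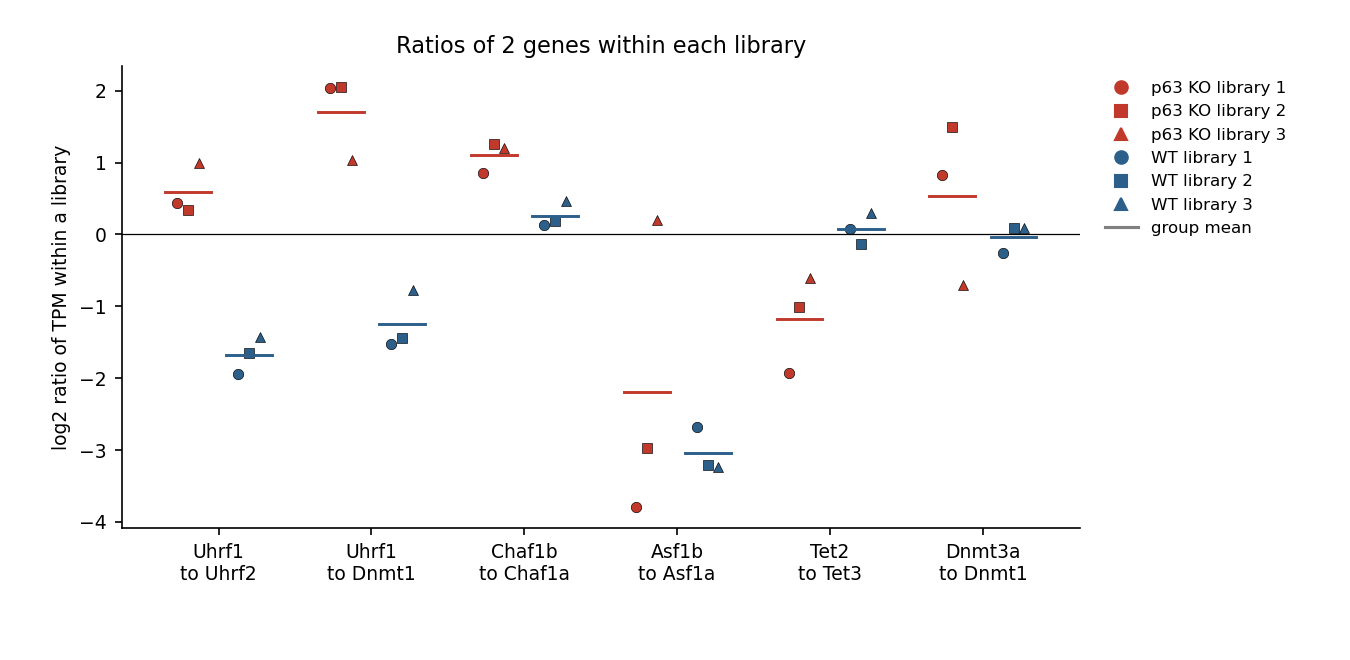
log2 ratio of the TPM of 2 genes within each KO library (red, left) and each WT library (blue, right), with group means as bars. Uhrf1 to Uhrf2, Uhrf1 to Dnmt1 and Chaf1b to Chaf1a are higher in all 3 KO libraries, Tet2 to Tet3 is lower in all 3, and Asf1b to Asf1a and Dnmt3a to Dnmt1 overlap.

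By mean level, the order in KO was Uhrf1, Uhrf2, Asf1a, Tet3, Dnmt3a, Chaf1b, Dnmt1, Tet2, Asf1b and Chaf1a. From Uhrf2 on, each neighbour in this order overlapped the next, and Uhrf1 and Uhrf2 overlapped by little (lowest Uhrf1 value 12.7 TPM, highest Uhrf2 value 12.9 TPM). In WT the order was Uhrf2, Asf1a, Dnmt1, Dnmt3a, Tet2, Tet3, Uhrf1, Chaf1b, Chaf1a and Asf1b. Of these neighbours, Uhrf2 and Asf1a, Asf1a and Dnmt1, Dnmt1 and Dnmt3a, Tet2 and Tet3, and Tet3 and Uhrf1 overlapped. The other WT neighbours did not.

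Across all 11268 genes tested, 8 were called higher in KO by limma and 36 lower (Benjamini-Hochberg adjusted p under 0.05). Uhrf1 and Chaf1b were 2 of the 8 higher genes, where the share over all genes was 0.071%, and 0 of the 9 genes tested here were among the lower ones (0.319% of all genes, limma; the fit with array weights called none of them lower either). All KO libraries lay above all WT libraries for 3 of the 9 genes, Uhrf1, Chaf1a and Chaf1b, against 5.42% of all genes, and all KO libraries lay below for 0 of the 9, against 15.6% of all genes. The median log2 difference of the 9 genes was 0.67, with 8 positive, beside 0.09 over all genes tested. Because this comparison chose the group, nothing is read from these counts. KO library 3 stood apart from the other libraries over many genes. Without it, 7 of the 9 were called higher (Uhrf1, Uhrf2, Dnmt3a, Chaf1a, Chaf1b, Asf1a and Tet3), but so were 33.8% of all genes, while 11.7% of all genes and 0 of the 9 were called lower. The call of Uhrf1 was lost without any other single library, at log2 differences of 2.31 and 2.35 without KO library 1 or 2, and 2.30, 2.39 and 2.49 without WT library 1, 2 or 3. The call of Chaf1b was lost in 12 of 16 alternatives, all scalings and the replicate block among them. They include the same 5 fits, at 1.65 and 1.503 without KO library 1 or 2, and 1.49, 1.49 and 1.55 without WT library 1, 2 or 3.

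How each KO library compared with the WT mean shows the split of KO library 3 more plainly. The median over all genes tested was 0.27, 0.24 and -0.29 on the log2 scale in KO libraries 1, 2 and 3, and 65.2%, 64.0% and 18.0% of genes lay above the WT mean. Uhrf1 lay at 2.56, 2.48 and 2.14, above 99.2%, 99.2% and 99.9% of all genes tested in the same library. Chaf1b lay at 1.23, 1.53 and 1.78, above 90.3%, 95.2% and 99.8% of genes. Chaf1a lay at 0.72, 0.69 and 0.94, above 73.9% and 75.1% of genes in KO libraries 1 and 2 but 98.8% in KO library 3. Uhrf2 lay at 0.83, 0.84 and -0.07, above 79.0%, 81.3% and 76.3% of genes. Asf1a likewise lay at 1.07, 1.02 and -0.08, above 86.6%, 86.6% and 75.7%. In KO library 3 both thus lay nearer the WT mean than the median gene, at -0.07 and -0.08 beside -0.29. From KO libraries 1 and 2 to KO library 3, both fell by more than the median gene did. Tet3 lay above 95.3%, 96.9% and 56.8% of genes. Dnmt1 lay above 25.04%, 22.5% and 93.8%. These ranks describe single libraries, which differ in the spread of their genes, and were not tested.

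**Figure D3:**
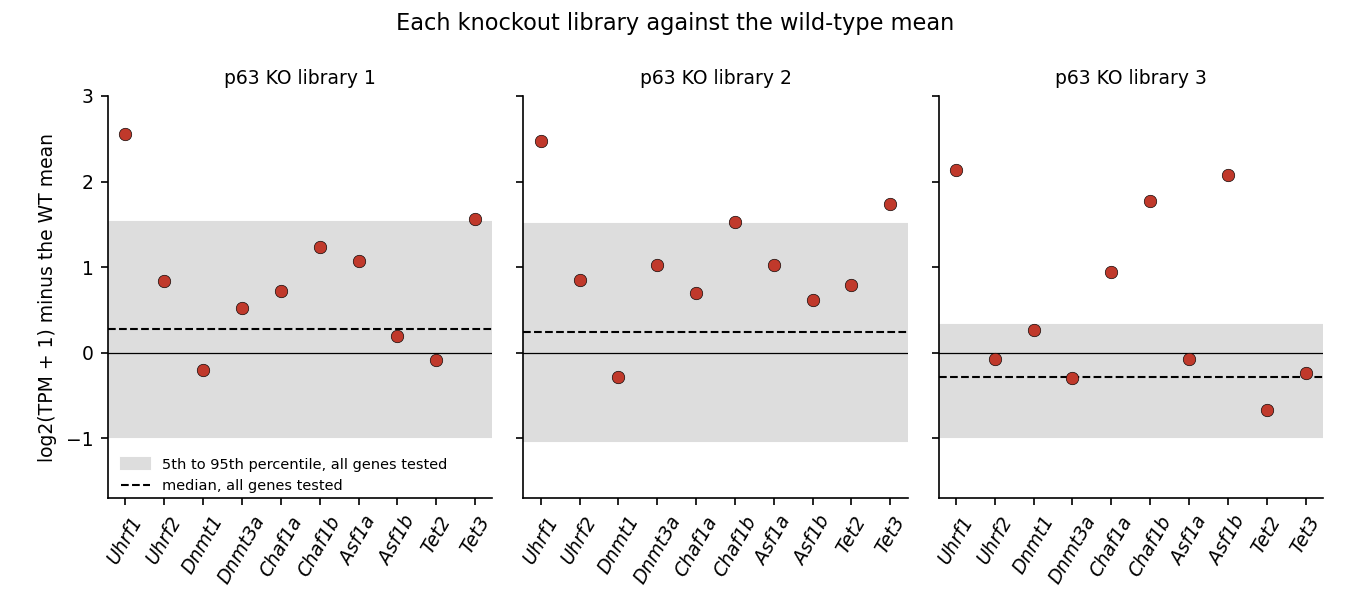
log2(TPM + 1) of each of the 10 genes minus its WT mean, in KO libraries 1, 2 and 3. The dashed line is the median and the grey band the 5th to 95th percentile of all genes tested in that library. Uhrf1 is above the band in all 3 libraries (2.56, 2.48 and 2.14), while the upper edge of the band is at 1.53, 1.51 and 0.32 and its lower edge hardly differs.

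Genes of S phase and proliferation were set beside these values. The list of 24 such genes summed to 88.4, 62.2 and 206 TPM in KO libraries 1, 2 and 3, and to between 51.3 and 62.5 TPM in WT libraries. Of the 24, 15 were above the highest WT library in KO library 1, 10 in KO library 2 and 23 in KO library 3, and 2, 9 and 0 were below the lowest. The share of all genes beyond the WT range in each KO library was not counted. Above the WT mean, a looser limit, lay 65.2%, 64.0% and 18.0% of all genes tested. The counts in KO libraries 1, 2 and 3 thus have no like background. Mki67, the Ki-67 antigen of cycling cells, stood at 0.890, 0.504 and 10.3 TPM in KO, against 0.655, 0.719 and 0.743 TPM in WT. Top2a, the topoisomerase that rises towards mitosis, followed it, with 0.968, 0.160 and 9.19 TPM in KO and 0.777, 0.956 and 1.28 TPM in WT. Asf1b, Dnmt1, Chaf1a and Chaf1b were highest in the same library, KO library 3. In TPM Uhrf1 was not, being lowest of the KO libraries there. By rank among all genes tested Uhrf1 was highest there, above 99.9% of genes, beside 99.2% in KO libraries 1 and 2. The median gene lay at -0.29 against the WT mean in KO library 3, beside 0.27 and 0.24 in KO libraries 1 and 2 (log2 scale). The ratio of Uhrf1 to Mki67 was 19.6, 32.5 and 1.24 in KO and 2.66, 2.92 and 3.48 in WT, with overlap. Mki67 was under 1 TPM in every library but KO library 3, so in those libraries the ratio rests on a low value. Mki67 and Top2a did not reach the filter and were not tested. The ratio of Uhrf1 to Mcm2, a subunit of the replicative helicase that also carries histones, was 2.33, 2.73 and 1.36 in KO and 0.317, 0.458 and 0.458 in WT, with no overlap. These ratios to Mki67 and Mcm2 were chosen after the values had been seen.

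Of the 19 proliferation genes tested, 0 passed limma's test over all genes, and 8 had an unadjusted p under 0.05, all higher in KO. Over all genes tested, 15.4% had an unadjusted p under 0.05, in either direction. In 8 of the 19, all KO libraries lay above all WT libraries, against 5.42% of all genes, and their median log2 difference was 0.69, beside 0.09 over all genes. The largest log2 differences of the list were those of Rrm2, a subunit of the enzyme that makes deoxynucleotides, and Tk1, a thymidine kinase. Rrm2 stood at 10.02, 2.11 and 21.2 TPM in KO and 1.91, 1.28 and 1.94 TPM in WT (log2 fold change 1.76, SE 0.64, adjusted p = 0.26). Tk1 stood at 2.77, 2.39 and 14.8 TPM in KO and 1.69, 1.30 and 0.713 TPM in WT (log2 fold change 1.42, SE 0.57, adjusted p = 0.30). Both had non-overlapping groups, with KO library 3 the highest. The part of proliferation in the levels of the 10 genes was not tested.

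**Figure D4:**
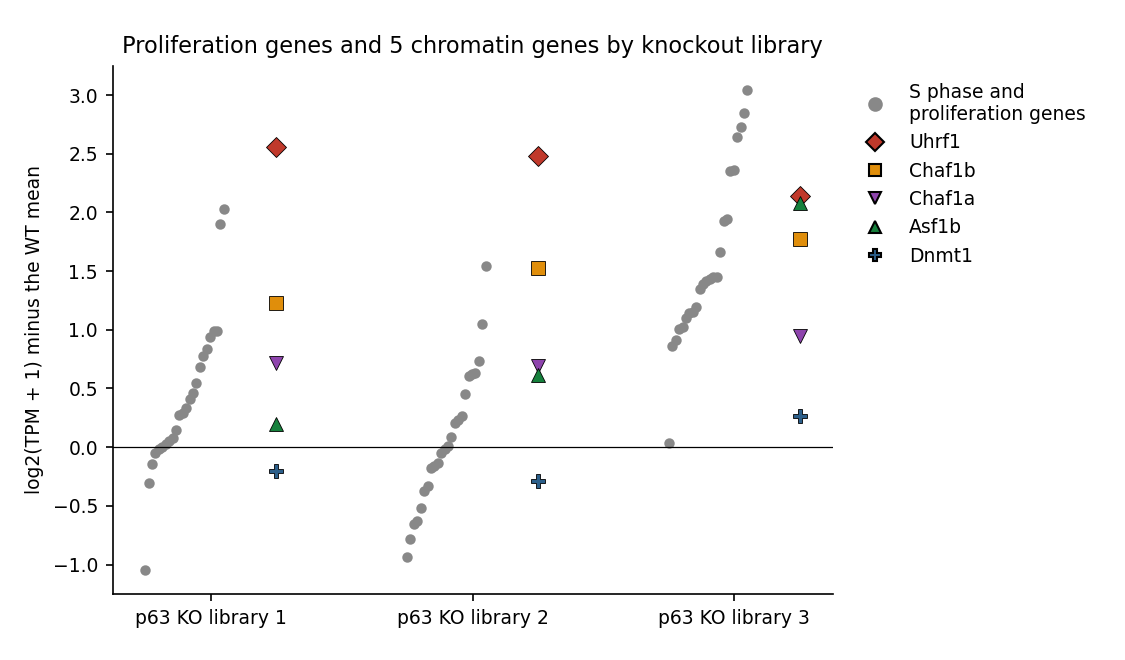
log2(TPM + 1) minus the WT mean for 24 S phase and proliferation genes (grey, sorted by value within each library) and for Uhrf1, Chaf1b, Chaf1a, Asf1b and Dnmt1, in each KO library. Uhrf1 lies above all grey points in KO libraries 1 and 2, and among them in KO library 3, where Asf1b joins it at 2.08.

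Genes that work with Uhrf1 and Dnmt1 were counted from a separate list. Of 10 listed partners 7 were tested, 0 passed in either direction by limma, and 2 had an unadjusted p under 0.05 (15.4% of all genes), both higher in KO. Suv39h1, a histone methyltransferase of heterochromatin, stood at 4.17, 3.91 and 2.26 TPM in KO and 2.04, 1.29 and 1.202 TPM in WT (log2 fold change 0.81, SE 0.26, adjusted p = 0.21). Pcna, the sliding clamp, stood at 56.4, 63.2 and 101 TPM in KO and 43.0, 38.9 and 46.9 TPM in WT (log2 fold change 0.72, SE 0.26, adjusted p = 0.25). Both were higher in every KO library than in any WT library. Hells, a chromatin remodeller that aids maintenance methylation, did not reach the filter and was high in 1 library, with 0.586, 0.323 and 5.87 TPM in KO and 0.614, 0.498 and 1.24 TPM in WT. Hells was named after its values were seen.

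Of 14 histone chaperones and helpers that act with replication, 13 were tested and 0 passed by limma. At an unadjusted p under 0.05 there was 1, higher in KO, beside 15.4% of all genes. Their median log2 difference was 0.33, with 12 positive and 1 negative, beside a median of 0.09 over all genes tested. Mms22l, which works with newly made histones at damaged forks, stood at 2.35, 1.495 and 2.35 TPM in KO and 0.571, 0.872 and 1.09 TPM in WT (log2 fold change 0.73, SE 0.21, adjusted p = 0.16). Cdan1, codanin, which binds Asf1 and holds it in the cytoplasm, stood at 4.13, 4.51 and 1.203 TPM in KO and 1.29, 1.401 and 1.56 TPM in WT (log2 fold change 0.72, SE 0.35, adjusted p = 0.37). In Cdan1, KO libraries 1 and 2 were above all WT libraries and KO library 3 was below them.

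Among genes of DNA demethylation other than Tet2 and Tet3, 7 of 10 were tested. By limma, 1 passed as lower (0.319% of all genes) and 0 as higher (0.071% of all genes). The one that passed was Gadd45a, a growth arrest gene induced by DNA damage that has been linked to demethylation. It fell to 10.8, 11.1 and 7.04 TPM in KO, against 67.4, 55.1 and 64.8 TPM in WT (log2 fold change -2.59, SE 0.24, limma adjusted p = 0.014). Its call was lost without WT library 1, 2 or 3 (-2.54, -2.68 and -2.56, adjusted p = 0.14, 0.11 and 0.11; over all alternatives 0.00018 to 0.14). Its paralogs did not pass and were higher in KO libraries 1 and 2. Gadd45g stood at 177, 87.8 and 14.2 TPM in KO and 17.4, 12.2 and 14.3 TPM in WT (log2 fold change 2.005, unadjusted p = 0.037 by limma). Gadd45b stood at 11.7, 11.9 and 1.61 TPM in KO and 1.74, 2.75 and 2.44 TPM in WT. Gadd45a and Gadd45g were the 2 tested genes of the list with an unadjusted p under 0.05 (15.4% of all genes). Tet1, the third Tet gene, was at or below 0.326 TPM in every library. Of 10 other DNA methyltransferases and readers of methylated DNA, 8 were tested and 0 passed (0 at an unadjusted p under 0.05). Mbd1, which binds methylated DNA, had the largest difference, with 21.3, 20.9 and 6.86 TPM in KO and 7.98, 8.26 and 8.77 TPM in WT (log2 fold change 0.75, SE 0.41, limma adjusted p = 0.39). KO libraries 1 and 2 were above all WT libraries and KO library 3 was below them. Dnmt3b stayed at or below 0.671 TPM in every library.

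The genes whose pattern over the 6 libraries was most like Uhrf1 were found by the root mean square difference of log2(TPM + 1), each gene centred on its own mean. They were Cxcl13 at 0.17, Sh3bp4 at 0.26, Slc37a2 at 0.30, Ttr at 0.36 and Cry1 at 0.40. Cxcl13, a chemokine that attracts B cells, stood at 8.59, 8.74 and 6.07 TPM in KO and 0.598, 0.294 and 1.12 TPM in WT. None of the 5 is a gene of the lists above. For Chaf1b the nearest were Slc23a2 at 0.18, Gins1 at 0.19, Gm12505 at 0.24, Slc36a4 at 0.25 and Pde3a at 0.26. Gins1, a subunit of the replicative helicase complex, stood at 3.38, 5.40 and 5.003 TPM in KO and 1.499, 0.884 and 1.26 TPM in WT. Among the 9 tested genes themselves, Uhrf2 and Asf1a were nearest to each other (0.13), Chaf1a and Chaf1b were 0.38 apart, and Uhrf1 was nearest to Chaf1b (0.53). Likeness here rests largely on the difference between the groups.

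**Figure D5:**
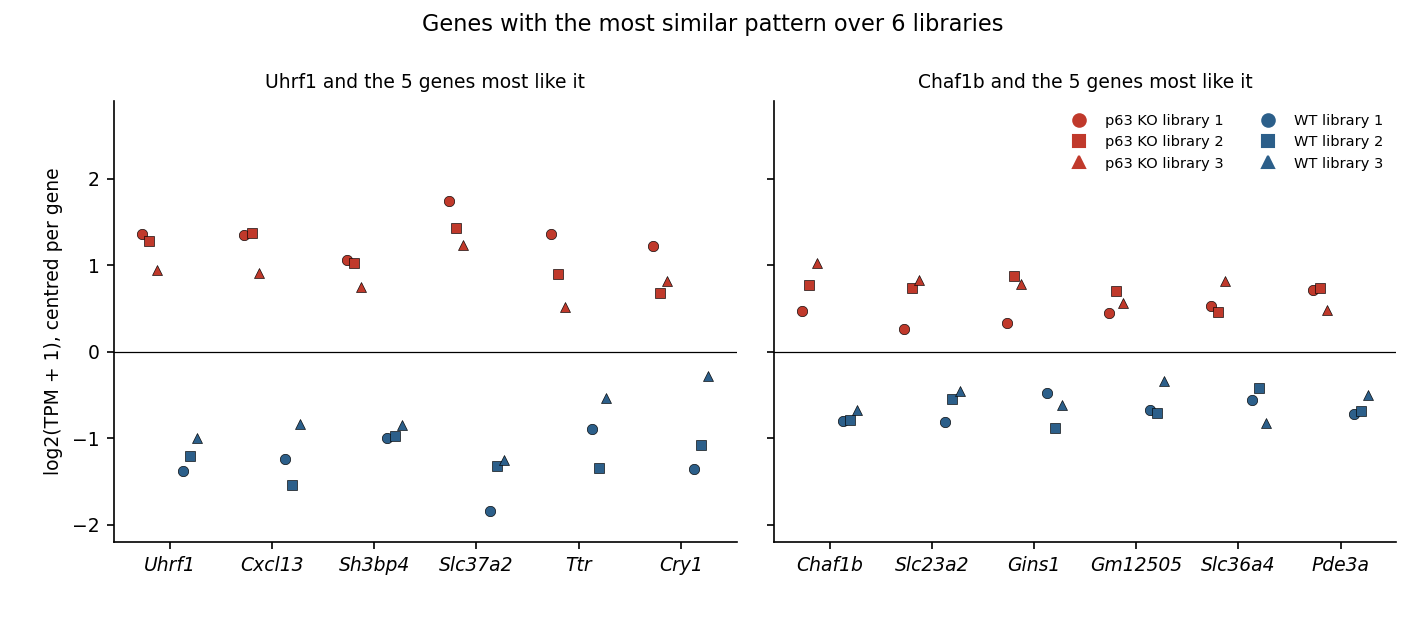
log2(TPM + 1) centred on the mean of each gene, for Uhrf1 (left panel) and Chaf1b (right panel) with the 5 genes most like each, in the 3 KO libraries (red) and the 3 WT libraries (blue). All KO points lie above all WT points for each gene shown, and the nearest to Uhrf1 is Cxcl13 (root mean square difference 0.17).

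Uhrf1 and Chaf1a lie on chromosome 17, and the other 8 genes lie on 8 other chromosomes. In RefSeq (GRCm38.p6), 13 protein-coding genes lie between Chaf1a and Uhrf1, of which 8 were tested. None of the 8 passed limma's test, and 2 had an unadjusted p under 0.05 (15.4% of all genes), the acute phase glycoprotein gene Lrg1 and the arrestin-domain gene Arrdc5. Lrg1 stood at 11.6, 12.6 and 14.02 TPM in KO and 7.79, 5.20 and 3.37 TPM in WT (log2 fold change 1.15, SE 0.29, adjusted p = 0.13). Arrdc5 stood at 7.30, 9.29 and 6.53 TPM in KO and 2.63, 4.33 and 2.93 TPM in WT (log2 fold change 1.03, SE 0.25, adjusted p = 0.11). The median over the 8 was 0.13, with a range of -0.26 to 1.15. In 2 of the 8, Lrg1 and Arrdc5, all KO libraries lay above all WT libraries, against 5.42% of all genes. In 0 of the 8 all KO libraries lay below, against 15.6% of all genes. A part of the shared interval in the levels of Uhrf1 and Chaf1a was not tested. This interval was examined after the values had been seen.

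Markers of cell types moved between the groups beside these genes. Summed over each list, basal and myoepithelial markers stood at 117 to 217 TPM in KO and 341 to 439 TPM in WT, fibroblast markers at 129 to 268 TPM in KO and 277 to 355 TPM in WT, and myeloid markers at 54.2 to 62.3 TPM in KO and 119 to 127 TPM in WT. All KO libraries lay below all WT libraries in 6 of 6 basal and myoepithelial, 4 of 6 fibroblast, 4 of 6 myeloid, 3 of 5 endothelial and 3 of 5 granular duct markers, against 15.6% of all genes. Granular duct markers stood at 11450 to 24177 TPM in KO and 32255 to 47456 TPM in WT, with Ren1 at 0 in all libraries. Klk1 of that list went the other way, at 12563, 6315 and 10537 TPM in KO and 4526, 6390 and 5004 TPM in WT. The Klk1 groups overlapped (log2 fold change 0.84). Endothelial markers stood at 14.4 to 20.8 TPM in KO and 20.04 to 21.7 TPM in WT, and epithelial markers at 640 to 1635 TPM in KO and 831 to 957 TPM in WT. Acinar markers stood at 589 to 4260 TPM in KO and 755 to 3108 TPM in WT. Of these, Smr3a ran from 5.35 to 1879 TPM in KO and from 189 to 1945 TPM in WT. Amy1 ran from 41.1 to 1586 TPM in KO and from 72.9 to 713 TPM in WT. Slc12a2 stood at 76.6 to 494 TPM in KO and 146 to 154 TPM in WT. Aqp5 stood at 150 to 202 TPM in KO and 173 to 211 TPM in WT, and Bhlha15 at 99.0 to 131 TPM in KO and 105 to 141 TPM in WT. The list for the neighbouring glands stood at 86086 to 144134 TPM in KO and 71752 to 91277 TPM in WT, nearly all of it Prol1, a mucin gene of the submandibular gland itself. The other genes of that list varied widely within both groups. Dcpp1 stood at 456, 3.49 and 14.7 TPM in KO and 2091, 352 and 38.8 TPM in WT. Bpifa2 stood at 3648, 15.3 and 281 TPM in KO and 826, 5152 and 390 TPM in WT. Muc19 stood at 21.3, 0.267 and 0.0172 TPM in KO and 38.8, 0.885 and 0.0179 TPM in WT, high in library 1 of each group. All 8 lymphocyte markers were under 1 TPM in every library, with sums of 0.850 to 1.25 TPM in KO and 1.42 to 2.08 TPM in WT. The 6 epithelial markers did not move together, and 4 of the 6 had a positive log2 difference. Krt19 stood at 2.85, 1.27 and 3.995 TPM in KO and 10.2, 11.6 and 7.71 TPM in WT, without overlap. Krt18 stood at 907, 1059 and 272 TPM in KO and 411, 379 and 368 TPM in WT, with overlap. Epcam stood at 128 to 200 TPM in KO and 172 to 232 TPM in WT. The part of these other cell types in the levels of the 10 genes was not tested.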

How the data were processed

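RNA-seq values of 3 p63 KO and 3 WT libraries were used, grouped by the genotype label and numbered within each group. The deposited values are TPM, which per the labels the authors derived from raw counts, adjusting for the length of genes and the size of libraries. The submitters' processing notes list TopHat2 2.1.1, Bowtie2 2.2.6, featureCounts 1.5.1, DESeq2 1.20.0 and mm9. The annotation and strand setting are not given in the sources used here. TPM keeps no depth, so no counting error was given, and the share of the most abundant genes bears on every other value.

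Genes that reached 1 TPM in 3 or more libraries were fitted with limma 3.58.1 in R 4.3.3 on log2(TPM + 1), with a mean-variance trend, two-sided p and Benjamini-Hochberg adjustment over 11268 genes. The genes described and the lists were chosen with earlier results of these data known. Named genes were Trp63, the 10 genes, the passing genes of each pathway list (at most 5) or otherwise the 2 with the largest log2 fold change, and the 5 genes most like Uhrf1 and Chaf1b. One gene that this rule names is not reported here. Rbbp4, Mki67, Top2a, Mcm2, Hells, Tet1, Dnmt3b, Lrg1, Arrdc5, Gadd45b, Gadd45g, Ahcyl2, Mtr, Epcam, Krt18, Krt19, Smr3a, Amy1, Slc12a2, Aqp5, Bhlha15, Ren1, Klk1, Prol1, Dcpp1, Bpifa2 and Muc19 were named outside this rule, after their values were seen. Pclaf and Adgre1 were found under older symbols through RefSeq. The labels state no pairing. The procedure was tested on simulated data with independent noise in each gene. The simulated data held no shift of a whole library like that of KO library 3, so this test does not cover it. Plots were made in Python 3.11.15 with matplotlib 3.10.9.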

Additional observations from a re-analysis of the deposited data

How the results depend on the processing

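The number of genes called depended on the settings. Against 8 higher and 36 lower, the counts were 5 and 6 with no filter, 14 and 45 under median-of-ratios scaling, 17 and 55 under quantile normalization, 18 and 88 after rescaling without the 50 most abundant genes, and 3477 and 1345 with array weights, which gave KO library 3 a weight of 0.0900. The lower count was 18 with a pseudocount of 0.1 TPM and 22 with a filter of 5 TPM. Leaving out 1 library gave 0 to 3809 higher and 0 to 1318 lower, the highest without KO library 3, and 0 higher without WT library 1, 2 or 3. Of the other genes of the pathway, 0 were called higher and 1 lower, beside 0.071% and 0.319% of all genes. Their lists had 7, 8, 7, 8, 13, 9 and 19 genes tested. The counts were 1 higher under median-of-ratios scaling and after rescaling without the 50 most abundant genes, 34 higher and 5 lower with array weights, and 0 to 36 higher and 0 to 6 lower on leaving out 1 library. Array weights called 3477 higher and 1345 lower among all 11268 genes. Without KO library 3, where the pathway counts were 36 and 6, 33.8% of all genes were called higher and 11.7% lower. The cause was not tested.

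Uhrf1 was called in 12 of 17 alternatives (log2 fold change 2.30 to 2.81) and Chaf1b in 4 of 16 (1.38 to 2.03), and both kept their direction in all of them. Uhrf2, Dnmt3a, Chaf1a, Asf1a and Tet3 were each called in 2, with array weights and without KO library 3. Dnmt1 and Tet2 were called in none. The ratio of Uhrf1 to Uhrf2 differed by 1.86 with a pseudocount of 1 TPM, against 2.27 without. Neighbouring library index numbers pair the libraries in the titles, but the labels state no pairing, and the deviations correlated at 0.17, 0.23 and 0.077. With this replicate block 7 genes were called higher and 24 lower, and the call of Chaf1b was lost (1.51 in both fits).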

Other observations

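The enzymes that supply and clear the methyl donor of these methyltransferases were also measured. Of 9 genes for S-adenosylmethionine supply, 8 were tested and 0 passed limma's test over all genes, with 4 at an unadjusted p under 0.05 (2 of them higher in KO), beside 15.4% of all genes. Ahcy, which breaks down the by-product that blocks methyltransferases, stood at 44.7, 63.4 and 26.5 TPM in KO and 15.3, 15.02 and 16.5 TPM in WT, without overlap (log2 fold change 1.38, SE 0.32, adjusted p = 0.099). It passed in 4 of 17 alternatives (adjusted p 0.00057 to 0.39). Gnmt, which uses up excess methyl donor, stood at 52.9, 104 and 52.2 TPM in KO and 31.3, 33.0 and 26.5 TPM in WT, also without overlap (log2 fold change 1.11, SE 0.30, adjusted p = 0.14). The other pair was lower in every KO library than in any WT library. Ahcyl2, a relative of Ahcy, stood at 7.67, 7.67 and 5.04 TPM in KO and 12.6, 12.1 and 10.8 TPM in WT (log2 fold change -0.74). Mtr, methionine synthase, stood at 2.28, 2.76 and 2.76 TPM in KO and 3.93, 4.93 and 4.32 TPM in WT (log2 fold change -0.58).

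Histone chaperones that work outside replication had 9 of 10 genes tested and 0 that passed by limma (1 at an unadjusted p under 0.05, higher in KO, beside 15.4% of all genes). Their median log2 fold change was 0.44, beside 0.09 over all genes tested. Their medians against the WT mean were 0.81, 0.71 and -0.14 in KO libraries 1, 2 and 3. Over all genes tested these medians were 0.27, 0.24 and -0.29. Daxx, which places the histone variant H3.3 with Atrx, stood at 20.2, 15.5 and 4.37 TPM in KO and 5.56, 5.73 and 6.26 TPM in WT (log2 fold change 0.85, SE 0.48, adjusted p = 0.40). Dek, another chaperone of that variant, stood at 42.6, 29.3 and 21.9 TPM in KO and 18.2, 16.4 and 21.5 TPM in WT (log2 fold change 0.67, SE 0.28, adjusted p = 0.31).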
